A study of Mus musculus with 6 samples.

Results

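The 44 genes described here encode the working parts of Wnt signalling: 13 Wnt ligands, 10 Frizzled receptors, the 2 co-receptors Lrp5 and Lrp6, 9 secreted inhibitors, 4 R-spondins and 6 target genes. They were taken by name from the 37991 gene rows of the count files, each matched to its Ensembl identifier, and all 44 passed the filter on low counts. The RNA came from cells positive for Nestin-GFP, sorted from skin dermis together with its subcutaneous white fat in mice 3 days old. The mice of the 3 mutant libraries carried the Nestin-GFP reporter, a Nestin-Cre recombinase and 1 Pdgfra allele with the change D842V. This change is known to make the receptor constitutively active and is written [S]D842V in the labels. The labels of the 3 control libraries name the reporter alone. If these controls lacked both the recombinase and the allele, the effects of the 2 cannot be told apart. The recombinase is driven by Nestin sequence, and no source used here explains the "[S]". The counts show RNA of both Pdgfra alleles together and do not check the amino acid change. The titles number the libraries 1 to 3 in each group and do not say whether each came from 1 mouse or from several pooled.

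Wnt proteins are lipid-modified ligands that bind Frizzled receptors together with Lrp5 or Lrp6. In the best known branch this stabilises beta-catenin, which enters the nucleus and activates genes with TCF/LEF factors, while other branches act on cell polarity and movement. Sfrp proteins, Frzb and Wif1 bind the ligands, Dkk1 and Dkk2 bind the co-receptors, and R-spondins raise receptor levels through Lgr receptors. In skin the pathway is known for hair follicle formation, and in fat for holding back the formation of adipocytes.

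Gene counts per library ran from 11912469 to 18792939, and a count of 0 allows up to 0.16 to 0.252 CPM, the gene counts put on a common library size, counting error only. Pdgfra, the altered gene, had 369, 345 and 358 CPM in mutant replicates 1 to 3, against 856, 819 and 854 CPM in control replicates 1 to 3 (log2 fold change -1.24, edgeR adjusted p = 2.76e-06). Pericytes are named as the cells in the series title. Of 10 pericyte markers 2 were higher (Kcnj8 and Abcc9) and none lower, 20% beside 17.8% of all tested genes. Their log2 fold changes were positive for 5 and negative for 5, with a median of 0.00. Rgs5 was at 139 to 222 CPM in mutants and 213 to 405 CPM in controls (log2 fold change -0.72, edgeR adjusted p = 0.181). Pdgfrb was at 219 to 239 CPM in mutants and 226 to 263 CPM in controls. Fibroblast markers were abundant, with Col1a1 at 30582 CPM or more in every library. The adipocyte hormone gene Adipoq was at 9.28 to 61.7 CPM in mutants and 5.28 to 15 CPM in controls. Control replicate 1 stood apart on the second principal component, which held 18.2% of the variance.

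Wnt genes changed in both directions in mutant cells, with called genes in every role except the co-receptors. Of the 44 genes 8 rose, 9 fell and 27 were not called at an adjusted p under 0.05 in edgeR's quasi-likelihood test over all 15035 tested genes. That is 38.6% of the members called, beside 17.8% of all tested genes, with 8.63% of all tested genes higher and 9.13% lower. The members and lists were chosen with earlier results of these data known, and 6 ligand genes that did not pass the filter are listed apart. Shares and medians set beside all genes, here and below, therefore cannot show whether Wnt genes changed more than others. The ligand genes Wnt2b, Wnt3, Wnt7b and Wnt10b, the inhibitor genes Sfrp1 and Sfrp4 and the target genes Tcf7 and Notum rose. The ligand genes Wnt5b and Wnt16, the receptor genes Fzd1 and Fzd5, the inhibitor genes Dkk2 and Dkk3, the R-spondin genes Rspo2 and Rspo4 and the target gene Axin2 fell. The libraries of the groups did not overlap for 15 members that were higher in mutants (beside 19.2% of all tested genes) and for 10 that were lower (beside 18.6%). The median log2 fold change of the members was 0.14 (0.08 lacking control 1 and 0.09 lacking mutant 1), beside 0.01 for all genes, and their median absolute log2 fold change was 0.43, beside 0.20 for all genes. In bulk samples fewer cells of a type and less RNA per cell cannot be told apart.

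**Figure D1:**
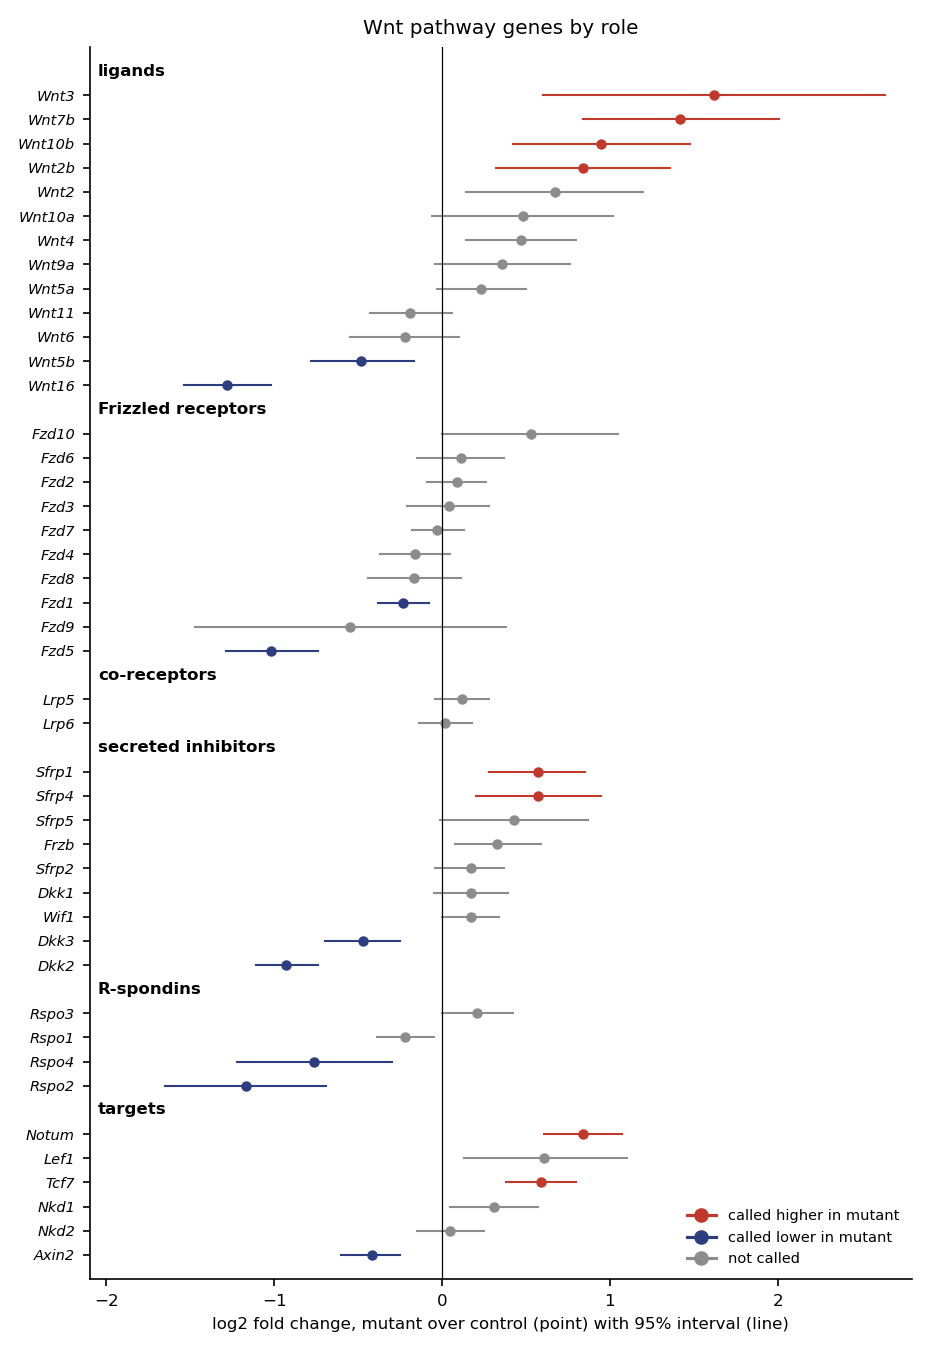
Log2 fold changes (mutant over control) of the 44 Wnt genes by role, with 95% intervals from the edgeR fit; n = 3 libraries per group. Red marks the 8 genes called higher, blue the 9 called lower and grey the 27 not called, and Wnt3, at the top, has the widest interval.

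The count of called members depended on single libraries. Without control replicate 3 there were 4 higher and 7 lower, and with any 1 other library left out there were 6 to 9 higher and 6 to 8 lower. Of the 17 called genes 9 kept their call in all 13 alternatives run: Wnt7b (ENSMUSG00000022382), Wnt16 (ENSMUSG00000029671), Fzd5 (ENSMUSG00000045005), Dkk2 (ENSMUSG00000028031), Dkk3 (ENSMUSG00000030772), Rspo2 (ENSMUSG00000051920), Axin2 (ENSMUSG00000000142), Tcf7 (ENSMUSG00000000782) and Notum (ENSMUSG00000042988). The other 8 lost it when at least 1 of the 6 libraries was left out.

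Of the genes that fell and kept that call in all alternatives, 4 have a promoter in the RefSeq table used here (build GRCm38.p6), and their 300-base windows, 250 bases before to 50 after the annotated start, are shown because these are the members whose lower RNA rests least on 1 library. Each is written 5′ to 3′ in the direction of transcription, and capitals mark the TCF/LEF core CTTTGA or CTTTGT, searched on both strands.
Dkk2 promoter, chr3:132085042-132085341, plus strand: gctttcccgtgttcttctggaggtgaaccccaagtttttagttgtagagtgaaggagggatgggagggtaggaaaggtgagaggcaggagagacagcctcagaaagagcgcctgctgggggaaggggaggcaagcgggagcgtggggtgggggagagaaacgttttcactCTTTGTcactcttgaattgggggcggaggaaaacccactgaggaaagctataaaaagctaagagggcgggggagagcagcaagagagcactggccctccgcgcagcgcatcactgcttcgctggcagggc
Wnt16 promoter, chr6:22287977-22288276, plus strand: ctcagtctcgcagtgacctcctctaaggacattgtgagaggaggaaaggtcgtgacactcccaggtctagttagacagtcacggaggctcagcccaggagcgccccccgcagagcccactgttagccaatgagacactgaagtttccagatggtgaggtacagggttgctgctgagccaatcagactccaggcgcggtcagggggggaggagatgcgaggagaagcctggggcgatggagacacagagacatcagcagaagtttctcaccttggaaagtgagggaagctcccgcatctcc
Fzd5 promoter, chr1:64737701-64738000, minus strand: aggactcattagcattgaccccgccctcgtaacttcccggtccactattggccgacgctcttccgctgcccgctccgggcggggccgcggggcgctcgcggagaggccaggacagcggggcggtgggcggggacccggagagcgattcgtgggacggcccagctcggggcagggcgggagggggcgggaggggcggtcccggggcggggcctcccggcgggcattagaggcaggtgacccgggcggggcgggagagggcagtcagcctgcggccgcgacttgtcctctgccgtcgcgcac
Axin2 promoter, chr11:108920099-108920398, plus strand: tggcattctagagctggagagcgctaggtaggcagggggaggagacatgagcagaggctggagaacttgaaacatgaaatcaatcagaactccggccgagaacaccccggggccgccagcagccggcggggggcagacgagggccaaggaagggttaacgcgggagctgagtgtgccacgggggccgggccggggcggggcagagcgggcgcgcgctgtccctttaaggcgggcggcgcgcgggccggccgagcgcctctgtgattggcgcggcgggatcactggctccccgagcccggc
The Dkk2 window holds 1 core, CTTTGT on its plus strand, starting 80 bases before the annotated start. The windows of Wnt16, Fzd5 and Axin2 hold none, which says only that these letters are not in these windows. Among all 32851 promoter windows listed by RefSeq, 31.2% hold a core, 16% the CTTTGA form and 18.7% the CTTTGT form. These shares are per window, and of the 36 windows of members 9 hold a core. The table has windows for 29 of the 44 members, 9 of them with a core in at least 1 window, and for 11 of the 17 called members, 4 of them with a core (Dkk2, Fzd1 and Wnt5b, which fell, and Wnt3, which rose). The base composition of the 4 windows shown ran from 57.7% G and C in Dkk2 and 58% in Wnt16 to 70% in Axin2 and 75.7% in Fzd5.

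Ligand genes moved both ways, and the 4 that rose were among those of low level. Of 13 ligand genes 4 rose, 2 fell and 7 were not called, with a median log2 fold change of 0.47. That is 46.2% called, beside 17.8% of all tested genes. Compared per length of exon, Wnt5a, a ligand known for branches that do not use beta-catenin, was the most abundant ligand gene at 22.6 CPM per kilobase over all 6 libraries, and took between 29.1% and 38.8% of the summed ligand level in a library. Wnt11, which acts in similar branches, followed at 10.9 CPM per kilobase. The 4 genes that rose lay at 2.23 (Wnt2b), 0.952 (Wnt10b), 0.574 (Wnt7b) and 0.465 (Wnt3) CPM per kilobase. The summed ligand level was 70, 60.9 and 68 CPM per kilobase in mutant replicates 1 to 3, against 56.7, 67.9 and 60.8 in control replicates 1 to 3, so the sums overlapped.

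Wnt7b, a ligand gene known from skin epithelium, had 3.89, 4.16 and 4.22 CPM in mutant libraries, against 0.895, 1.93 and 1.79 CPM in control libraries. All mutant libraries were above all control libraries, and the log2 fold change was 1.42 (95% interval 0.84 to 2.01, edgeR adjusted p = 0.00487). Wnt10b, a ligand known to hold back adipocyte formation, had 4.02, 4.74 and 4.01 CPM in mutants, against 1.47, 2.77 and 2.43 CPM in controls. The groups did not overlap, control replicate 1 was the lowest library, and the log2 fold change was 0.95 (95% interval 0.42 to 1.48, edgeR adjusted p = 0.0198, no longer called lacking control 3, at 0.051, or mutant 2, 0.0572).

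Wnt3 had 2.61, 1.95 and 1.85 CPM in mutants, against 0.192, 1.34 and 0.639 CPM in controls. Control replicate 1 held only 3 counts of this gene, and the log2 fold change of 1.62 had a 95% interval of 0.60 to 2.64 (edgeR adjusted p = 0.0347). Only the fit lacking control replicate 2 still called it when 1 library was left out; the adjusted p was 0.0505 lacking control 1, 0.129 lacking control 3, and 0.107, 0.0657 and 0.0732 lacking mutant 1, 2 and 3. Wnt2b, a ligand of the beta-catenin branch, had 11.7, 10.6 and 13.8 CPM in mutants, against 7.67, 8.46 and 4.16 CPM in controls. Control replicate 3 was the lowest of the 6 libraries, and the log2 fold change was 0.84 (95% interval 0.32 to 1.36, edgeR adjusted p = 0.0351). Wnt2b was no longer called lacking control 3 (0.0519), mutant 1 (0.0856), mutant 2 (0.0557) or mutant 3 (0.119).

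Wnt16, a ligand gene known for its part in bone thickness, fell most among the ligands. It had 6.7, 6.36 and 6.54 CPM in mutants, against 15.5, 16.1 and 16 CPM in controls. The libraries of each group lay close together and far from the other group, with a log2 fold change of -1.28 (95% interval -1.54 to -1.02, edgeR adjusted p = 7.31e-05). Wnt5b, a close relative of Wnt5a, had 13.1, 10.7 and 11.1 CPM in mutants, against 18.6, 16.3 and 13.6 CPM in controls. The nearest libraries, mutant replicate 1 and control replicate 3, were almost equal, and the log2 fold change was -0.48 (95% interval -0.78 to -0.17, edgeR adjusted p = 0.0339). Wnt5b was no longer called lacking control 1 (0.092), control 2 (0.0837), mutant 2 (0.0872) or mutant 3 (0.108).

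The abundant ligand genes were not called. Wnt5a had 190.0, 183 and 201 CPM in mutants, against 129, 174 and 185 CPM in controls (log2 fold change 0.23, 95% interval -0.03 to 0.50, edgeR adjusted p = 0.202). Control replicate 1 was the low library, and of the controls replicate 3 alone reached the range of the mutants. Wnt11 had 48.6, 41.4 and 36 CPM in mutants, against 48.9, 51.6 and 43 CPM in controls (log2 fold change -0.19, edgeR adjusted p = 0.265). The other 5 ligand genes, Wnt2, Wnt4, Wnt6, Wnt9a and Wnt10a, had log2 fold changes from -0.22 (Wnt6) to 0.67 (Wnt2). Wnt4 came nearest to a call, with 20.2, 16.5 and 18.1 CPM in mutants, against 10.2, 15.5 and 14 CPM in controls (log2 fold change 0.47, edgeR adjusted p = 0.0502).

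**Figure D2:**
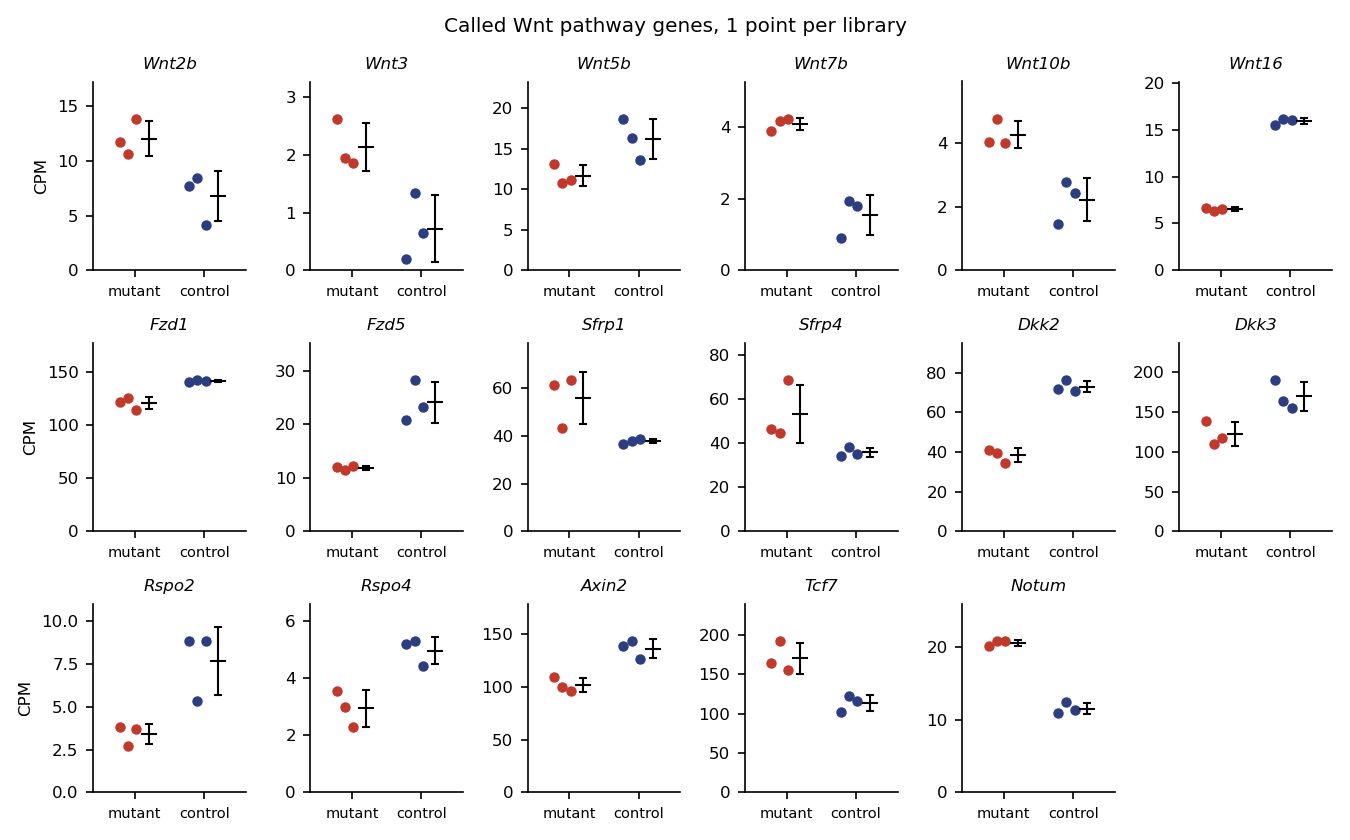
CPM of the 17 called Wnt genes in each library (points; mutant left in red, control right in blue), with the mean and SD of 3 libraries (bars) and each axis starting at 0. The groups do not overlap in any of the 17 panels, and in Wnt5b the nearest libraries, at 13.1 CPM in mutants and 13.6 CPM in controls, almost meet.

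Markers of skin epithelium, where several Wnt ligands are made, were higher in the same libraries. Of 15 such markers 6 rose and none fell, 40% called beside 17.8% of all tested genes. Their summed level was 1302, 1115 and 1403 CPM in mutant libraries, against 655, 959 and 785 CPM in control libraries. Krt5, a keratin of basal keratinocytes, was at 405, 311 and 395 CPM in mutants, against 164, 266 and 208 CPM in controls (log2 fold change 0.80, edgeR adjusted p = 0.0312, no longer called lacking control 3, mutant 1 or mutant 3, at 0.114, 0.102 and 0.111), whereas the epithelial adhesion gene Epcam was at 9.38, 6.95 and 11.4 CPM in mutants, against 7.04, 9.55 and 8.7 CPM in controls and was not called (log2 fold change 0.15, edgeR adjusted p = 0.636). Control replicate 1 had the lowest epithelial sum and the lowest Wnt3, Wnt7b and Wnt10b, but it was the lowest control for 25 of the 44 members in all, and Wnt2b was lowest in control replicate 3. None of the 15 markers was at 0 in all libraries, and the part of these cells in the ligand values was not tested. Markers of skeletal muscle with its satellite cells were higher as well, 8 of 12 rising and none falling (66.7% called), with sums of 229 to 335 CPM in mutants and 106 to 125 CPM in controls. Of 12 endothelial markers 6 rose and none fell (50% called), with sums of 287 to 404 CPM in mutants and 178 to 214 CPM in controls. Their part was not tested either.

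**Figure D3:**
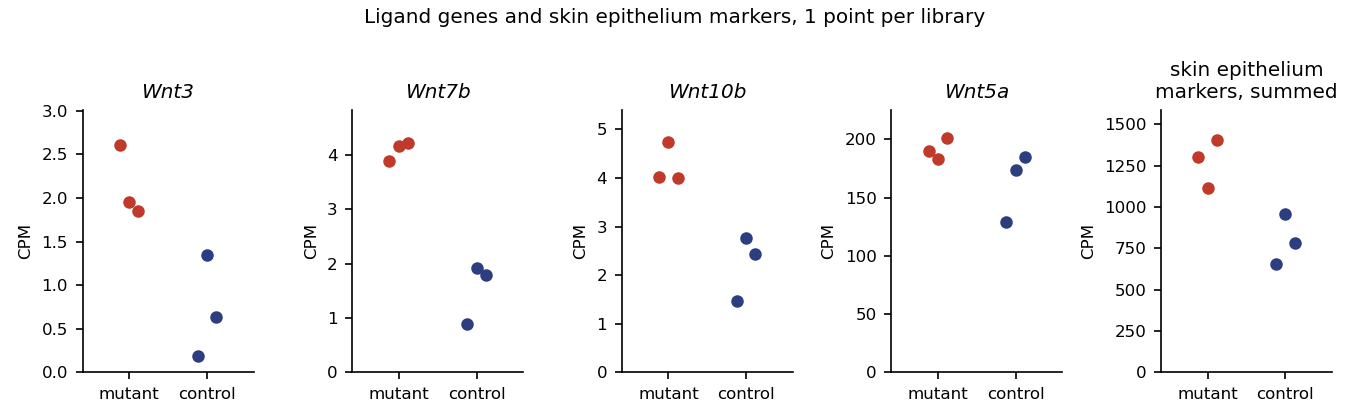
CPM of the ligand genes Wnt3, Wnt7b, Wnt10b and Wnt5a and the summed CPM of 15 skin epithelium markers, 1 point per library, mutant left and control right, each axis starting at 0. Control replicate 1 is the leftmost control point and is the lowest library in all 5 panels.

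Among receptors, 2 Frizzled genes fell and the rest were not called. Of 10 Frizzled genes none rose, 2 fell and 8 were not called, with a median log2 fold change of -0.09. That is 20% called, near the 17.8% of all tested genes. Frizzled proteins are membrane receptors with a cysteine-rich outer domain that holds the Wnt lipid. Per length, Fzd2 (46.7 CPM per kilobase), Fzd1 (31.1) and Fzd7 (15.9) led, and Fzd9 (0.365) was lowest. Fzd2 held between 36.2% and 44% of the summed Frizzled level of a library.

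Fzd5 had 12, 11.4 and 12.2 CPM in mutants, against 20.7, 28.2 and 23.3 CPM in controls. The mutant libraries were nearly equal and all under the lowest control, with a log2 fold change of -1.02 (95% interval -1.29 to -0.74, edgeR adjusted p = 0.000423). Fzd1 had 122, 125 and 114 CPM in mutants, against 140.1, 142 and 141 CPM in controls. The gap was small but did not close in any pair of libraries, with a log2 fold change of -0.23 (95% interval -0.38 to -0.08, edgeR adjusted p = 0.0406). Fzd1 was called in only 1 of the fits with a library left out, that lacking control 1; the adjusted p was 0.117 and 0.081 lacking control 2 and 3, and 0.0724, 0.0546 and 0.174 lacking mutant 1, 2 and 3.

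Fzd2, the most abundant Frizzled gene, had 189, 166 and 174 CPM in mutants, against 171, 176 and 152 CPM in controls (log2 fold change 0.09, 95% interval -0.09 to 0.26, edgeR adjusted p = 0.498). Fzd3, Fzd4, Fzd6, Fzd7, Fzd8, Fzd9 and Fzd10 had overlapping groups and log2 fold changes from -0.55 (Fzd9) to 0.53 (Fzd10). Fzd9, with 7 to 19 counts a library, could not have shown a small difference at this depth. The co-receptor gene Lrp5 had 168, 157 and 158 CPM in mutants, against 144, 158 and 142 CPM in controls (log2 fold change 0.12, edgeR adjusted p = 0.274). For Lrp6 the values were 189.5, 207 and 189 CPM in mutants, against 184, 196 and 197 CPM in controls, and the 95% interval of its log2 fold change, -0.14 to 0.18, leaves room for only small differences in this fit.

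**Figure D4:**
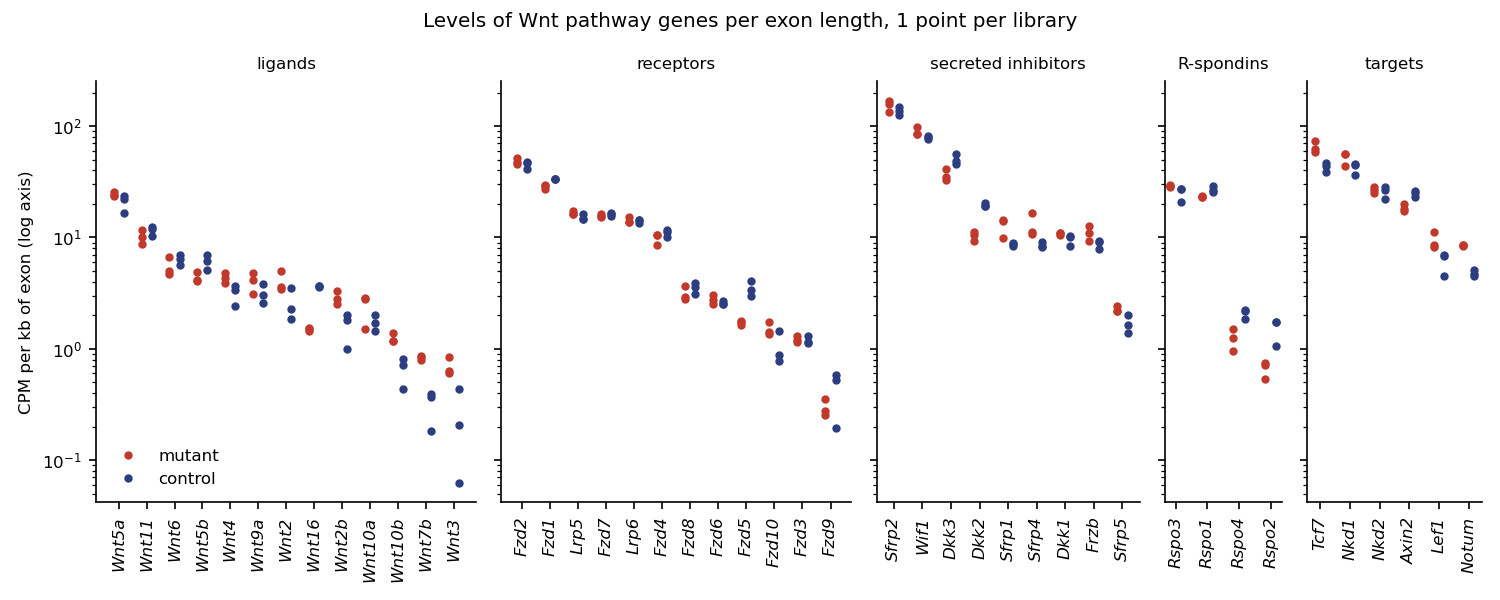
Level of each of the 44 Wnt genes in CPM per kilobase of exon (log axis), ordered by mean within each role, 1 point per library, mutant in red to the left and control in blue to the right. Levels span from Sfrp2, at 145 CPM per kilobase over all libraries, to Fzd9, at 0.365.

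Summed per length, the secreted inhibitors had the highest level of the roles, and the genes of the Sfrp and Dkk families that were called went opposite ways. Of 9 inhibitor genes 2 rose (both Sfrp), 2 fell (both Dkk) and 5 were not called, 44.4% called beside 17.8% of all tested genes. The 9 together reached 368, 330.1 and 319.7 CPM per kilobase in mutants, against 327, 333 and 311 in controls, and Sfrp2 alone gave 40.8% to 47.5% of that. The difference between the families was not tested.

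Dkk2, a ligand of Lrp5 and Lrp6, had 41.2, 39.3 and 34.5 CPM in mutants, against 71.6, 76.1 and 70.8 CPM in controls. Every mutant library was well under every control library, with a log2 fold change of -0.93 (95% interval -1.11 to -0.74, edgeR adjusted p = 6.94e-05), and it is the gene whose promoter window holds a core above. Dkk3, the divergent member of the family, had 139, 110.1 and 117 CPM in mutants, against 189.7, 164 and 155 CPM in controls. The groups did not overlap, and the log2 fold change was -0.47 (95% interval -0.70 to -0.25, edgeR adjusted p = 0.0101). Dkk1, the best known inhibitor of the co-receptors, had 26.5, 25.4 and 26.6 CPM in mutants, against 20.5, 24.3 and 25.1 CPM in controls (log2 fold change 0.17, edgeR adjusted p = 0.26).

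Sfrp1 had 61.3, 43.5 and 63.3 CPM in mutants, against 36.8, 37.9 and 38.8 CPM in controls. Mutant replicate 2 lay nearest to the controls, which were almost equal among themselves, and the log2 fold change was 0.57 (95% interval 0.28 to 0.85, edgeR adjusted p = 0.0148, no longer called lacking control 3, at 0.0618, or mutant 1, 0.0506). Sfrp4 had 46.5, 44.7 and 68.6 CPM in mutants, against 34.3, 38.2 and 35.2 CPM in controls. Mutant replicate 3 was the high library, and the log2 fold change was 0.57 (95% interval 0.20 to 0.95, edgeR adjusted p = 0.0451). Leaving out control replicate 1 (0.105), 2 (0.081) or 3 (0.147) ended that call.

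The other inhibitor genes were higher in the mutant mean and not called. Sfrp2 had 365, 337 and 289 CPM in mutants, against 292, 317 and 273 CPM in controls (log2 fold change 0.17, edgeR adjusted p = 0.248). Wif1, which binds Wnt ligands outside the cell, had 238, 208 and 206 CPM in mutants, against 198, 186 and 194 CPM in controls (log2 fold change 0.17, 95% interval 0.00 to 0.34, edgeR adjusted p = 0.148). Frzb and Sfrp5, both ligand-binding, had log2 fold changes of 0.33 and 0.43 (edgeR adjusted p = 0.0709 and 0.16). For Dkk1, Wif1, Frzb and Sfrp5 all mutant libraries were above all controls, which was so for 19.2% of all tested genes.

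Both R-spondin genes of low level fell. Of 4 R-spondin genes 2 fell and 2 were not called, with a median log2 fold change of -0.49. That is 50% called in this short list, beside 17.8% of all tested genes. The low genes Rspo2 and Rspo4, at 1.08 and 1.66 CPM per kilobase, fell, while the abundant Rspo3 and Rspo1, at 27.1 and 25.2, were not called. Rspo2 had 3.82, 2.73 and 3.69 CPM in mutants, against 8.83, 5.36 and 8.82 CPM in controls. The groups did not overlap, and control replicate 2 lay nearest to the mutants (log2 fold change -1.17, 95% interval -1.65 to -0.69, edgeR adjusted p = 0.0048). Rspo4, known from nail formation in humans, had 3.55, 2.99 and 2.27 CPM in mutants, against 5.18, 5.28 and 4.41 CPM in controls. Its groups did not overlap (log2 fold change -0.76, 95% interval -1.22 to -0.30, edgeR adjusted p = 0.0271), and it was no longer called lacking control 2 (0.0816), control 3 (0.0512), mutant 2 (0.0565) or mutant 3 (0.113).

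Rspo3 had 88.5, 91.2 and 89.4 CPM in mutants, against 64.8, 84.3 and 83.5 CPM in controls (log2 fold change 0.21, edgeR adjusted p = 0.153), with control replicate 1 the low library. For Rspo1 the values were 46, 44.5 and 45 CPM in mutants, against 55.8, 52.1 and 49.5 CPM in controls (log2 fold change -0.22, edgeR adjusted p = 0.0717). The summed R-spondin level was 53.8 to 54.6 CPM per kilobase in mutants and 53.7 to 57.5 in controls, and within it the share of Rspo3 was 52.4%, 54.4% and 53.7% in mutants, against 39.1%, 47.5% and 48.1% in controls.

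Genes known as targets of the beta-catenin branch moved both ways, and Axin2 was called lower. Of the 6 target genes Tcf7 and Notum rose, Axin2 fell, and Lef1, Nkd1 and Nkd2 were not called, 50% called beside 17.8% of all tested genes. The log2 fold change was positive for 5 and negative for 1, with a median of 0.45. It was positive for 7645 of all 15035 tested genes. The summed target level was 180.1, 194 and 165 CPM per kilobase in mutants, against 132, 158 and 149.6 in controls. Tcf7 gave 29.4% to 37.6% of that sum. Axin2, a scaffold of the complex that degrades beta-catenin and a widely used readout of the pathway, had 109, 99.7 and 95.8 CPM in mutants, against 139, 143 and 126 CPM in controls. All mutant libraries were under all control libraries, with a log2 fold change of -0.42 (95% interval -0.60 to -0.25, edgeR adjusted p = 0.00473).

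Notum, an enzyme that removes the lipid from Wnt proteins, had 20.1, 20.8 and 20.8 CPM in mutants, against 10.9, 12.4 and 11.3 CPM in controls. The libraries of each group were close and the gap wide (log2 fold change 0.84, 95% interval 0.61 to 1.07, edgeR adjusted p = 0.000514). Tcf7, which encodes the TCF1 factor, had 164, 192 and 155 CPM in mutants, against 102, 122 and 116 CPM in controls. Each mutant library was above each control (log2 fold change 0.59, 95% interval 0.38 to 0.80, edgeR adjusted p = 0.00233), and Tcf7 was the most abundant of the targets per length, at 54 CPM per kilobase.

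Lef1, the related factor of the dermal papilla, had 75.7, 98 and 71.9 CPM in mutants, against 39.3, 61.2 and 60.2 CPM in controls. The groups did not overlap, but the spread was large and the gene was not called (log2 fold change 0.61, edgeR adjusted p = 0.0859). It was called by DESeq2 and without control replicate 1, its lowest library. Nkd1, a feedback inhibitor that binds Dishevelled, had 255, 258 and 199 CPM in mutants, against 165, 207 and 202 CPM in controls (log2 fold change 0.31, edgeR adjusted p = 0.0918). Nkd2 was at 120.3 to 136 CPM in mutants and 107 to 136 CPM in controls (log2 fold change 0.05, edgeR adjusted p = 0.764).

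Axin2 and Notum have annotated genes of measurable level on the opposite strand, and since no strand setting is given, reads of such pairs could not be told apart. The partner of Axin2, Gm11670, had 5.83, 5 and 5.43 CPM in mutants, against 5.95, 7.21 and 6.39 CPM in controls, and was not called (edgeR adjusted p = 0.28). The partners of Notum were Myadml2os, at 2.21, 1.88 and 2.48 CPM in mutants, against 1.22, 0.922 and 1.41 CPM in controls (log2 fold change 0.88, edgeR adjusted p = 0.0439), and Notumos, which was not called (log2 fold change 0.77, edgeR adjusted p = 0.0694). All of these partners were lower in level than the member they overlap.

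**Figure D5:**
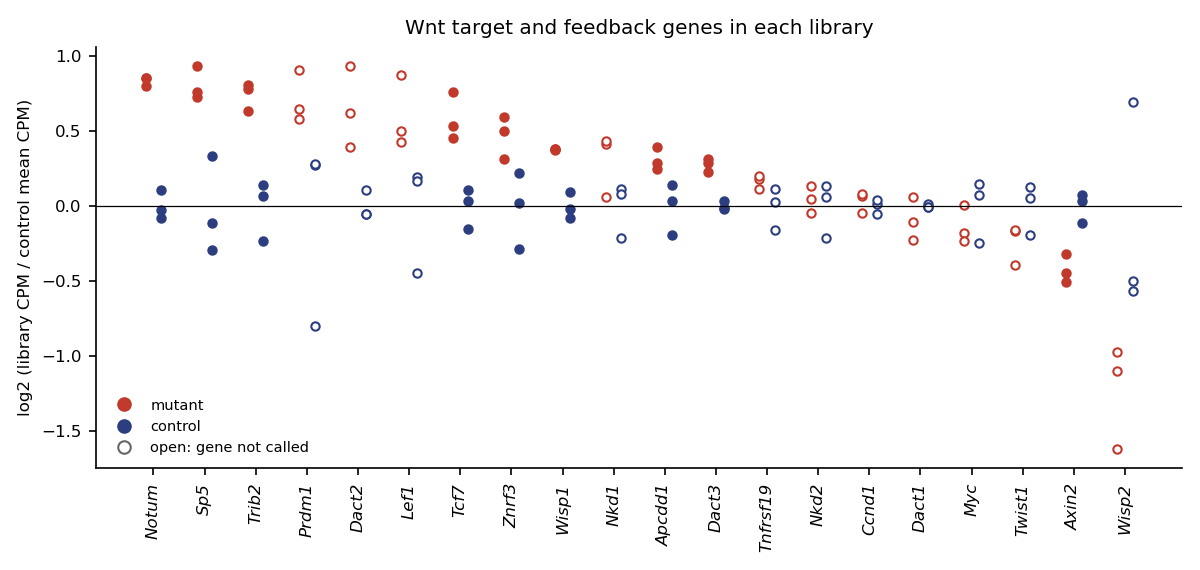
Wnt target and feedback genes in each library, as log2 of CPM over the control mean, 1 point per library, mutant left of control, open points for genes not called. Notum, Sp5 and Trib2 lie highest in mutants among the called genes, Axin2 is the called gene below 0, and control replicate 1 is the low point of Prdm1 and Lef1.

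Markers of the dermal papilla and its precursor, cells in which Wnt targets are active, moved in both directions. Of 11 such markers 2 rose and 3 fell (45.5% called, beside 17.8% of all tested genes), with sums of 931, 1101 and 928 CPM in mutants, against 907, 1049 and 1088 CPM in controls. Corin, a protease of the papilla, was at 63.9, 49 and 62.1 CPM in mutants, against 78.2, 81.1 and 84.6 CPM in controls (log2 fold change -0.48, edgeR adjusted p = 0.00728), and Hhip fell by 0.71 on the log2 scale. Fgf10 (0.51) and Prom1 (0.63) rose, Prom1 no longer called lacking mutant 2 (0.0635) or mutant 3 (0.0669). None of the 11 was at 0 in all libraries, and their part in the values of the Wnt targets, R-spondins and inhibitors was not tested.

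The rest of the pathway was described with 74 further genes, of which 65 passed the filter. Of these 13 rose, 6 fell and 46 were not called, 29.2% called beside 17.8% of all tested genes. Rises numbered 6 without control replicate 3, 7 without mutant replicate 1 or 3 and 8 without mutant replicate 2, and falls 3 without mutant replicate 2 and 2 without mutant replicate 3. The ligand genes Wnt1, Wnt3a, Wnt7a, Wnt8a, Wnt8b and Wnt9b did not pass the filter. Of 23 genes of the beta-catenin core 3 rose and 1 fell, 17.4% called, near the 17.8% of all tested genes. Their median absolute log2 fold change was 0.08, beside 0.20 for all genes. Among the 3 that rose was Axin1, the general scaffold of the degradation complex. It had 95.6, 98 and 91.2 CPM in mutants, against 74.7, 71.1 and 76.6 CPM in controls (log2 fold change 0.36, edgeR adjusted p = 0.00709). The scaffold genes Axin1 and Axin2 were thus called in opposite directions. Tcf7l1, a relative of Tcf7 known mainly as a repressor, rose by 0.25 on the log2 scale, Bcl9, a co-activator of beta-catenin, rose by 0.22, and Tle2, a Groucho co-repressor, fell by 0.30. Tcf7l1 lost its call with DESeq2 and with any 1 library left out (largest adjusted p 0.156), Bcl9 with DESeq2, other scalings, no filter and any 1 library left out (0.128), and Tle2 with some libraries left out (0.0815). Ctnnb1, the beta-catenin gene itself, was chosen after its values were seen and had a log2 fold change of 0.02 (edgeR adjusted p = 0.858).

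At the cell surface, 2 of 9 further receptor genes rose and 2 fell, and of 5 tested modulator genes 1 rose and 2 fell. These are 44.4% and 60% called, beside 17.8% of all tested genes. Ror2, a receptor for Wnt5a, had 121, 118 and 113 CPM in mutants, against 93.6, 90.6 and 79.2 CPM in controls (log2 fold change 0.42, edgeR adjusted p = 0.00526). Kremen2 rose by 1.20 and Kremen1 fell by 0.34 on the log2 scale, both receptors for Dkk proteins. Their levels were far apart, Kremen2 at 1.21 CPM per kilobase (15 to 70 counts a library) and Kremen1 at 26.1. Kremen1 was no longer called lacking control 2 (0.0615) or mutant 3 (0.0565). Ror1, a relative of Ror2, fell by 0.29 on the log2 scale (edgeR adjusted p = 0.0405) and lost its call with DESeq2 and with 5 of the 6 libraries left out in turn (largest 0.171). Sost, whose product sclerostin binds Lrp5 and Lrp6, had 9.85, 6.82 and 7.86 CPM in mutants, against 21.8, 14.7 and 17.3 CPM in controls (log2 fold change -1.14, edgeR adjusted p = 0.00172). Tpbg fell by 0.38 on the log2 scale and Apcdd1, a membrane inhibitor, rose by 0.31. Wls, which carries Wnt proteins to the cell surface, had 322, 293 and 247 CPM in mutants, against 331, 399.7 and 388 CPM in controls (log2 fold change -0.38, edgeR adjusted p = 0.0298). The calls of Wls and Apcdd1 were lost when some single libraries were left out (largest adjusted p 0.115 and 0.114).

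Of 12 tested further target genes 4 rose and none fell in the edgeR test over all genes, 33.3% called beside 17.8% of all tested genes. Log2 fold changes were positive for 8 and negative for 4. The level summed over the 13 listed genes was 388 to 410.1 CPM per kilobase in mutants and 363 to 426 in controls, so the sums overlapped. Wisp2, a matricellular protein gene, had the largest log2 fold change of the 12 and just missed a call, with 2.61, 1.82 and 2.85 CPM in mutants, against 9.02, 3.77 and 3.96 CPM in controls (-1.20, edgeR adjusted p = 0.0509). It was called lower in 7 of the 13 alternatives, DESeq2 and both other scalings among them, and control replicate 1 was its high library. Trib2, a pseudokinase gene, had 121, 137 and 134 CPM in mutants, against 66.5, 82.1 and 86.1 CPM in controls (log2 fold change 0.74, edgeR adjusted p = 0.00075). Wisp1, a matricellular protein gene, rose by 0.38 and Dact3 by 0.28 on the log2 scale, and Sp5, the remaining rise, had a log2 fold change of 0.80 (edgeR adjusted p = 0.0423). Znrf3, the ligase that removes Frizzled proteins from the surface, had 32.6, 30.5 and 26.8 CPM in mutants, against 17.7, 25.2 and 21.9 CPM in controls (log2 fold change 0.48, edgeR adjusted p = 0.025). The calls of Dact3, Sp5 and Znrf3 were lost when some single libraries were left out (largest adjusted p 0.0801, 0.14 and 0.0926). Of 9 tested planar polarity genes 2 rose and none fell, 22.2% called, beside 17.8% of all tested genes. Celsr1, an atypical cadherin gene and the less firm of these calls, rose by 0.58 on the log2 scale with overlapping groups and was not called in 4 of the 6 fits with a library left out (largest adjusted p 0.125).

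The members had a median within-group coefficient of variation of 10.5% in mutants and 10.5% in controls. It ran from 1.53% to 32.2% in mutants and from 0.8% (Fzd1) to 80% (Wnt3) in controls.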

How the data were processed

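RNA-seq was analysed for 6 libraries, 3 mutant and 3 control. The authors deposited whole-number read counts per gene, 1 file per library. Per the submitters' processing notes, the build was mm9, and DESeq2, HTSeq 0.5.3, TopHat2 2.0.4, cutadapt 1.1 and FastQC are named as tools; what each did and the strand setting of the counting are not given in the sources used here. Each file held 5 rows that name no gene (36.9% to 41.7% of its counts), which stayed out of library sizes and tests. Symbols were matched by identifier for 32919 of 37991 rows.

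The members and lists were chosen with earlier results of these data known. Counts were filtered with filterByExpr (minimum count 10, minimum total 15), scaled by TMM and fitted in R 4.3.3 by edgeR 4.0.16 (quasi-likelihood F test, robust, group as the only term, Benjamini-Hochberg over 15035 genes). Log2 fold changes are mutant over control, with 95% intervals from that fit, and the test was checked on simulated data. CPM values use TMM-scaled library sizes. Exon lengths are unions over GENCODE models of the GRCm38 build, not the models that were counted. Called genes of each role, and the 2 most abundant per length, were described one by one, and up to 3 called genes of each further list by smallest adjusted p. Ror1, Bcl9, Sp5, Wisp2 and Ctnnb1 were added after their values were seen. Values of the members Wnt4, Dkk1, Lef1 and Nkd2 are given outside this rule. So are those of single marker genes, such as Krt5, Epcam, Corin, Hhip, Fgf10 and Prom1. The marker genes of 11 cell types were also counted. Exact permutation of 3 against 3 libraries cannot go below a two-sided p of 0.1. No pair of libraries within a group was alike up to counting noise (chi-square per degree of freedom 4.73 to 13.3). Alternatives used DESeq2 1.42.0 and limma 3.58.1 (voom), other scalings and filters, a replicate block, and each library left out. The result of 1 further gene is not reported here.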

Additional observations from a re-analysis of the deposited data

How the results depend on the processing

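All 17 called members kept their call with DESeq2 size factors, library totals only, no filter, at least 1 CPM in 3 libraries, DESeq2 and limma-voom. Across all genes the calls numbered 1298 higher and 1372 lower, and 658 to 1199 higher and 753 to 1500 lower with 1 library left out, the fewest without mutant replicate 3. Among members the counts with 1 library left out ran from 4 to 9 higher and 6 to 8 lower, and among the other pathway genes from 6 to 10 higher and 2 to 5 lower. Members had a median log2 fold change of 0.08 lacking control 1 and 0.09 lacking mutant 1. With 1 library left out, the log2 fold change turned for 5 genes near 0 that were called in no alternative: Lrp6 (-0.02 to 0.05), Fzd3 (-0.02 to 0.10), Nkd2 (-0.06 to 0.12), Ctnnb1 (-0.00 to 0.04) and Epcam (-0.04 to 0.31). The cause of these moves was not tested. Mutant and control libraries share replicate numbers, and deviations from the group means correlated at 0.117, -0.0293 and -0.0866 for title numbers 1 to 3. With 3 libraries per group, such correlations cannot decide whether libraries of the same number were handled together. The deposited mutant data carry numbers 2 to 4 instead. By those numbers the pairs correlate at -0.0574 (mutant 1 and control 2) and 0.158 (mutant 2 and control 3), and no block was fitted by them. With the title number as a replicate block 8 members were higher and 9 lower, 15 of the 17 calls remained, the calls of Wnt2b and Wnt3 were lost and those of Frzb and Lef1 were gained, and over all genes 1329 were higher and 1439 lower. Genes of few counts, such as Wnt3 and Fzd9, are limited by depth.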

Other observations

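Among cell type marker lists not described above, Schwann cell markers had 0 of 8 tested genes higher and 1 lower, with sums of 161 to 203 CPM in mutants and 209.8 to 244 CPM in controls. Called were 12.5% of Schwann cell, 16.7% of melanocyte, 80% of mast cell, 14.3% of adipocyte and 22.2% of fibroblast markers, beside 17.8% of all tested genes. Melanocyte markers had 0 of 6 higher and 1 lower (sums of 137 to 262 CPM in mutants and 244 to 376 CPM in controls), macrophage markers 0 of 8 higher and 0 lower by edgeR (239 to 292 CPM and 178 to 303 CPM), mast cell markers 3 of 5 higher and 1 lower (106 to 124 CPM and 79.4 to 97.1 CPM), and adipocyte markers 1 of 7 higher and 0 lower (350.1 to 672 CPM and 271 to 364 CPM). Fibroblast markers had 0 of 9 higher and 2 lower, Pdgfra and Dpp4, with sums of 56401 to 69864 CPM in mutants and 68953 to 76782 CPM in controls. Pericyte markers summed to 1032 to 1299 CPM in mutants and 1059.7 to 1324 CPM in controls.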
